A study of Mus musculus with 18 samples.

Results

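Levels of 8 keratin genes that mark simple and mucosal epithelia, Krt4, Krt13, Krt7, Krt8, Krt18, Krt19, Krt20 and Krt23, were followed in mouse epidermal cells from skin and papillomas. They were chosen by name from the 52636 genes of the count table, and 8 of 8 were found in it. Their rule used no measured value, but they were chosen with earlier results of these data known.

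Keratins are the intermediate filament proteins of epithelial cells, and a filament needs a type I keratin paired with a type II keratin. K8 (type II) and K18 (type I) form the filaments of simple epithelia such as gut and liver, and K4 (type II) and K13 (type I) those of the moist lining of mouth and esophagus. Epidermis builds its filaments instead from K5 with K14 in basal cells and K1 with K10 above them, and the appearance of K13 and K8 is a classical sign of progression in chemically induced mouse skin tumors. K7 (type II) and K19 (type I) belong to ducts and glands, K19 also to the hair follicle bulge, K20 (type I) to gut, urothelium and the Merkel cells of touch domes, and K23 is a type I keratin.

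RNA-seq was done on cells sorted as EpCAM+ and negative for CD45, CD140a and CD31, although whole skin is named as the source in the labels. All mice were C57BL/6 and carried floxed alleles of Zfp36, which encodes tristetraprolin (TTP), a protein that binds AU-rich elements and speeds mRNA decay. The Zfp36 fl/fl mice (fl/fl) were littermate controls. Zfp36 ΔK14 mice (ΔK14, which the study calls ΔEP) also carried a Cre under a human keratin 14 promoter. That promoter is active in cells that use keratin 14, and their descendants inherit the deletion. Each genotype gave mock-treated skin (mock), nontumoral skin next to papillomas after the mutagen DMBA and the promoter TPA (treated) and papillomas (tumor). Mice were 8 weeks old when the protocol began, and the ages at harvest of single mice are not given in the sources used here. The labels call the treated cells tumoral, whereas the methods describe nontumoral skin. Nothing says which mice the 3 samples of a group came from, so p-values measure the spread between these samples.

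Replicates 2 and 3 of mock ΔK14 skin held the same count for each gene and entered as 1 sample, leaving 17 libraries. Total counts ran from 2808550 to 9617985, and tumor fl/fl replicate 1 was the shallowest. In both genotypes mock replicate 1 was separated from the remaining mock skin on the second principal component (34.0 and 32.8 against values from -50.4 to -55.3). On the first component tumor fl/fl replicate 1 (67.7) was nearer to the ΔK14 tumors (69.5 to 81.3) than to the other fl/fl tumors (32.0 and 41.0). Zfp36 stood between 152 and 716 CPM (counts scaled to the library total) in fl/fl libraries and between 10.1 and 38.6 CPM in ΔK14 libraries. Keratinocyte markers were abundant throughout, with a summed level of 5822 to 38041 CPM over 8 genes.

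The Krt8 and Krt18 genes are neighbours on chromosome 15 (GRCm38), at 101996698 to 102004482 on the minus strand and 102028180 to 102032027 on the plus strand, with 23697 bases between them. Krt18 is thus a type I gene that lies in the cluster of type II genes. Krt4 (101918535 to 101924735, minus strand) and Krt7 (101411043 to 101430313, plus strand) lie in the same cluster. The type I genes Krt13 (100117327 to 100121566), Krt19 (100140810 to 100148665), Krt20 (99428403 to 99438150) and Krt23 (99477974 to 99493137) lie on the minus strand of chromosome 11. Krt8 overlaps a noncoding gene on the other strand, Gm36026, and Krt7 overlaps Gm671. Use of strand in counting is not given in the sources used here, so reads of such pairs cannot be told apart.

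Promoter windows are shown for the 4 keratins whose level changed between treated skin and tumors in ΔK14 mice, with the results given further on. Each runs from 250 bases before to 50 bases after the start given by RefSeq on GRCm38.p6, written 5′ to 3′. Capitals mark the AP-1 motif TGANTCA, the Sp1 GC box GGGCGG or the TATA box TATAAA on either strand.
Krt8 promoter, chr15:102004293-102004592, minus strand: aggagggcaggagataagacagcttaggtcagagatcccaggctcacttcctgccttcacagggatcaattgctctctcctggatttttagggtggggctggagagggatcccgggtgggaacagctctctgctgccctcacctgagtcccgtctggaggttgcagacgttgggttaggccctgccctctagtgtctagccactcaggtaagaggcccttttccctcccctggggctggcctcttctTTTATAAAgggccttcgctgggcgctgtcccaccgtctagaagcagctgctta
Krt18 promoter, chr15:102027966-102028265, plus strand: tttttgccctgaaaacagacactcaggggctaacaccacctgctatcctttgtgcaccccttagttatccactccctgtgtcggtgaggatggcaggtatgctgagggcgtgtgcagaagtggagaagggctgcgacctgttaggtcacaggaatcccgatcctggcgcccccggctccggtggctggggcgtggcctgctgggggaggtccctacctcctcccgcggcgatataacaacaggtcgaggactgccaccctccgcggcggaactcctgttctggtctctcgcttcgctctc
Krt13 promoter, chr11:100121517-100121816, minus strand: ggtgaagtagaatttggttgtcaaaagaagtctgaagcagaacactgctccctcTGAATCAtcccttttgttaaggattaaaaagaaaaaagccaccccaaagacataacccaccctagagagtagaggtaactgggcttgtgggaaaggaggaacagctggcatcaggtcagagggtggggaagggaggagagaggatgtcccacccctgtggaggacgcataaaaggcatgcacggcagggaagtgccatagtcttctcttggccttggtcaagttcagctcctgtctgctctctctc
Krt23 promoter, chr11:99493071-99493370, minus strand: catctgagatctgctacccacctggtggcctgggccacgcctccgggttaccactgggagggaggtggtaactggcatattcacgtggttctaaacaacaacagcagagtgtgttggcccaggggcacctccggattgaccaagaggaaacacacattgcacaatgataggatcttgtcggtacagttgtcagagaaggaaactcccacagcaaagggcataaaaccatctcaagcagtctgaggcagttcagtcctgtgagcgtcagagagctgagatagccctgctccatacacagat
AP-1 is the factor through which TPA acts on many promoters. The motif searched for it allowed any base in the middle position and was found in 7.81% of 32851 mouse promoter windows. The Krt13 window shown held it once, as TGAATCA, 196 bases before the start. The second RefSeq start of Krt13 had a window with 2 matches, both TGACTCA. The windows of Krt18 and Krt23 held none of the 3 motifs, and that of Krt8 held the TATA box in a run that matches on both strands. GGGCGG was present in 35.7% and TATAAA in 13.6% of all windows. RefSeq windows matched 6 of the 8 genes, those of Krt4 and Krt19 being absent from the table used. Krt7 had 4 GC boxes and Krt20 a TATA box. These are matches of letters and not measured sites.

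TTP binds AU-rich elements, of which TATTTAT is the core heptamer in DNA letters. In the longest annotated 3′ untranslated region the Krt7 transcript held 4 such heptamers and the Krt20 transcript 1, while the other 6 genes held none. The share among all 20925 genes was 27.6%. The members' 3′ untranslated regions had a median length of 255.5 bases, against 961 bases over all genes.

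All 8 keratins were scarce. Together they made up 0.0585% to 0.812% of the counts of the 54 keratin genes in the table, and at most 0.00708% of all counts. Krt20 and Krt7 were close to absent. Krt20 had 1 count in each of 3 libraries (mock ΔK14 replicate 1, treated fl/fl replicate 2 and treated ΔK14 replicate 1) and 0 in the 6 tumor libraries, which allows levels of up to 0.458 to 1.51 CPM at 3 counts per library. Such limits cover counting error only. Krt7 had 59 counts over all libraries and at most 1.80 CPM in any of them. Neither passed the filter on low counts in any comparison, so they were not tested. Krt19 and Krt23 were tested in 12 of 12 comparisons, Krt18 in 11, Krt8 and Krt13 in 9 and Krt4 in 5. In bulk samples, fewer cells of a type and less RNA per cell cannot be told apart.

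**Figure D1:**
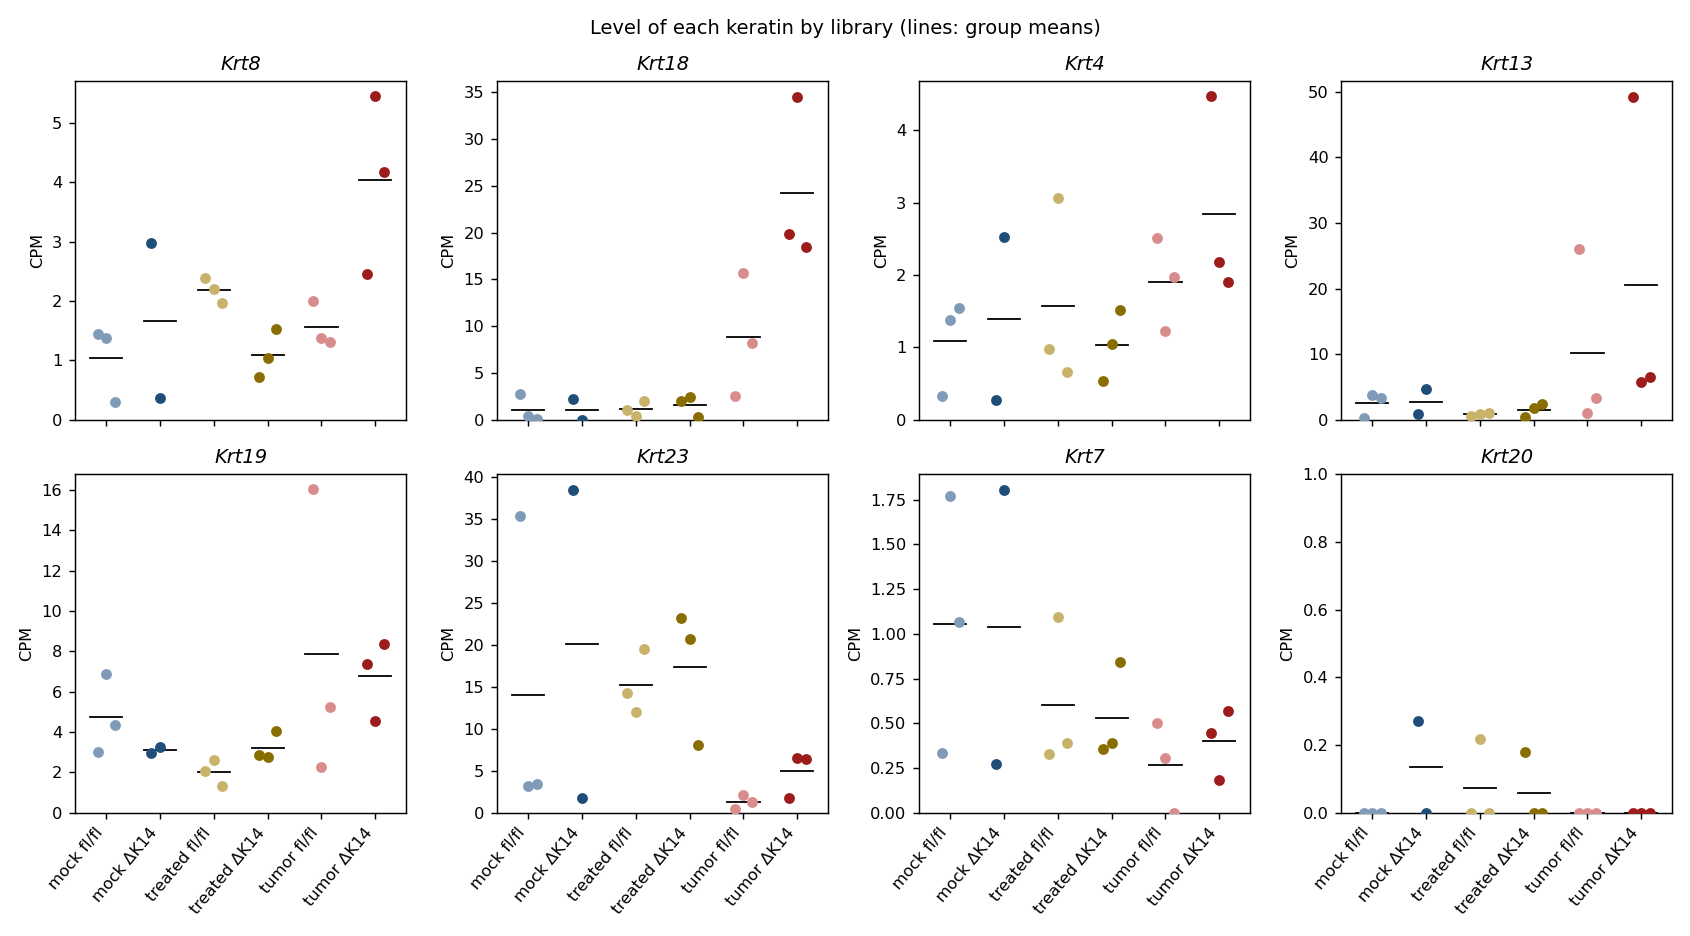
Level of each of the 8 keratins in CPM (vertical axis, linear, own scale in each panel) in the 17 libraries by group. Points are libraries and lines are group means; Krt18 reaches 34.5 CPM in a ΔK14 tumor, Krt23 is low in tumors, and Krt20 never exceeds 0.271 CPM.

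Krt18 was the keratin of simple epithelia that set tumors apart most clearly. In mock skin it stood at 2.77, 0.393 and 0.0967 CPM in fl/fl mice and at 2.17 and 0 CPM in ΔK14 mice, where the 0 allows up to 1.08 CPM. In treated skin it stood at 1.09, 0.439 and 1.96 CPM in fl/fl mice and at 1.97, 2.48 and 0.338 CPM in ΔK14 mice. Tumors had 2.51, 15.7 and 8.19 CPM in fl/fl mice and 19.9, 34.5 and 18.4 CPM in ΔK14 mice. Tumor libraries thus lay above treated libraries of their own genotype without overlap, and only tumor fl/fl replicate 1, with 5 counts of Krt18, came within the range of mock skin. Tumors lay above treated skin without overlap in 21.9% of all genes tested in fl/fl and in 28.4% in ΔK14 mice.

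Krt18 rose 7.31-fold in tumors over treated skin in fl/fl mice (log2 fold change 2.87, SE 0.70, adjusted p = 0.0233, edgeR quasi-likelihood test with Benjamini-Hochberg adjustment). In ΔK14 mice it rose 13.6-fold (3.77, SE 0.53, adjusted p = 0.00160). Against mock skin it rose in ΔK14 mice (4.23, SE 0.86, adjusted p = 0.0270), whereas in fl/fl mice the log2 fold change was 2.96 (SE 1.07) with an adjusted p of 0.136. The ΔK14 call was lost without any 1 of the 3 tumor libraries (adjusted p 0.0834 to 0.104). The fl/fl value passed the threshold with DESeq2 (2.98, adjusted p = 0.0384), which called 2201 genes. Without mock fl/fl replicate 1, it became 5.33 with an adjusted p of 0.0140, with 3277 genes called. The fl/fl rise over treated skin held in 1 of 6 fits that each lacked a library, that without tumor replicate 1 (log2 fold changes 2.16 to 3.42, adjusted p up to 0.105), and the ΔK14 rise in 6 of 6 (3.33 to 4.31). With the replicate number as a block the fl/fl rise was 2.61 and not called (adjusted p = 0.0703 by edgeR).

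Krt8, the type II partner of Krt18, rose in tumors of ΔK14 mice. In fl/fl mice it stood at 1.44, 1.37 and 0.290 CPM in mock skin, at 2.39, 2.19 and 1.96 CPM in treated skin and at 2.01, 1.37 and 1.31 CPM in tumors. In ΔK14 mice it stood at 2.98 and 0.361 CPM in mock skin, at 0.718, 1.04 and 1.52 CPM in treated skin and at 2.46, 5.45 and 4.18 CPM in tumors. In ΔK14 mice every tumor library was above every treated library, as in 28.4% of all genes tested. In fl/fl mice the tumor and treated values overlapped.

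Krt8 rose 3.41-fold from treated skin to tumors in ΔK14 mice (log2 fold change 1.77, SE 0.44, adjusted p = 0.0141 by edgeR), a call lost without treated replicate 2, tumor replicate 2 or tumor replicate 3 (adjusted p 0.0543 to 0.0665). In fl/fl mice the log2 fold change was -0.57 (SE 0.42, adjusted p = 0.349). The difference between the genotypes was 2.35 (SE 0.61, 95% interval 1.03 to 3.67), with an unadjusted p of 0.00202 from edgeR and an adjusted p of 0.207. It was not past the threshold, and in this contrast 0.0118% of 17017 genes were called. Without tumor fl/fl replicate 1 it was 2.51 with an adjusted p of 0.0332, in a fit that called 1352 genes. Counts behind these values were few, at most 30 in any library. Against mock skin no call was made for Krt8 in ΔK14 mice (1.08, SE 0.75, adjusted p = 0.347), and in fl/fl mice it did not pass the filter. Without mock ΔK14 replicate 1 the ΔK14 value became 3.36 with an adjusted p of 0.0388. That fit rested on 1 mock library with 1 count of Krt8, assumed to vary like the tumors, and called 4573 genes.

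The type I to type II ratio of the pair was taken per length of merged exons. Krt18 over Krt8 was between 0.273 and 3.75 in the 10 libraries of mock and treated skin in which both genes had counts. It was 1.70, 15.6 and 8.52 in fl/fl tumors and 11.02, 8.63 and 6.01 in ΔK14 tumors. In 5 of 6 tumor libraries the ratio was thus above that of every library of skin. The exception, tumor fl/fl replicate 1, had 5 and 4 counts of Krt18 and Krt8. Other ratios also rested on few counts. They were 25 and 4 in tumor fl/fl replicate 3, 11 and 4 in treated ΔK14 replicate 1 and 1 and 3 in mock fl/fl replicate 3.

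The ratio of Krt13 to its partner Krt4 was less orderly. It ran from 0.335 to 3.51 in mock and treated skin. In tumors it was 12.2, 1.02 and 1.95 in fl/fl mice and 12.9, 3.12 and 3.98 in ΔK14 mice, so that replicate 1 of each genotype stood apart.

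**Figure D2:**
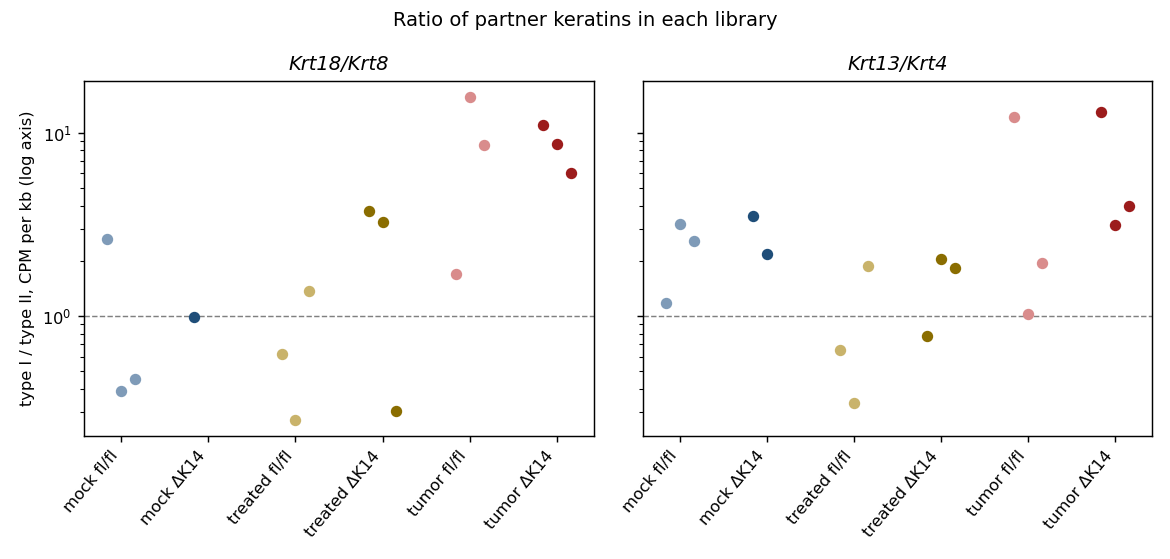
Type I over type II keratin in each library, from CPM per kb (log axis), for Krt18/Krt8 and Krt13/Krt4 by group. The dashed line marks a ratio of 1; 5 of 6 tumor libraries lie above 6 for Krt18/Krt8, while replicate 1 of each tumor group is the highest for Krt13/Krt4, at 12.2 and 12.9.

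Krt13 was high in 1 tumor of each genotype. It stood at 0.333, 3.73 and 3.38 CPM in mock fl/fl skin and at 0.812 and 4.69 CPM in mock ΔK14 skin. Treated skin had 0.543, 0.877 and 1.05 CPM in fl/fl mice and 0.359, 1.83 and 2.37 CPM in ΔK14 mice. Tumors had 26.1, 1.07 and 3.28 CPM in fl/fl mice and 49.2, 5.81 and 6.46 CPM in ΔK14 mice. Replicate 1 of each tumor group stood far above the other libraries of its group, and tumor fl/fl replicate 2 exceeded treated fl/fl skin by little. The 3 ΔK14 tumors were above all mock and treated libraries. The share of genes for which this held was not counted. Within ΔK14 mice, tumors lay above treated skin without overlap in 28.4% of all genes tested, and above mock skin in 28.6%.

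Krt13 rose 12.3-fold from treated skin to tumors in ΔK14 mice (log2 fold change 3.63, SE 0.97, adjusted p = 0.0188 by edgeR). Without tumor ΔK14 replicate 1, the library at 49.2 CPM, the log2 fold change was 1.91 with an adjusted p of 0.0464. Without treated ΔK14 replicate 2 it was 3.82 and no longer called (adjusted p = 0.0628). It missed the filter in the same comparison in fl/fl mice. Without that filter the log2 fold change was 3.37 with an adjusted p of 6.46e-06, in a fit that called 4316 genes. Krt13 had 17 counts in treated skin and 69 in tumors there, 52 of them in tumor replicate 1. Against mock skin it was not called in either genotype (1.93, SE 1.22, adjusted p = 0.353 in fl/fl mice; 2.87, SE 1.27, adjusted p = 0.162 in ΔK14 mice), though DESeq2 called it in ΔK14 mice (adjusted p = 0.0425).

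Krt4, the type II partner of Krt13, stayed low. It stood between 0.333 and 1.55 CPM in mock fl/fl skin and at 0.271 and 2.52 CPM in mock ΔK14 skin. Treated skin had 0.654 to 3.07 CPM in fl/fl mice and 0.538 to 1.52 CPM in ΔK14 mice. Tumors had 1.22 to 2.51 CPM in fl/fl mice and 4.47, 2.18 and 1.90 CPM in ΔK14 mice. ΔK14 tumors were above treated ΔK14 skin without overlap, as in 28.4% of all genes tested, but Krt4 did not pass the filter there. Against mock ΔK14 skin the log2 fold change was 1.02 (SE 0.87, adjusted p = 0.444, edgeR).

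Krt23 moved the other way. In treated skin it stood at 14.2, 12.1 and 19.5 CPM in fl/fl mice and at 23.1, 20.8 and 8.12 CPM in ΔK14 mice. In tumors it stood at 0.502, 2.14 and 1.31 CPM in fl/fl mice and at 1.79, 6.53 and 6.46 CPM in ΔK14 mice. Tumors lay below treated skin without overlap in both genotypes, as did 24.0% of all genes tested in fl/fl and 23.8% in ΔK14 mice. Mock skin was split, with 35.3 and 38.4 CPM in replicate 1 of fl/fl and ΔK14 mice against 3.14, 3.48 and 1.80 CPM in the other libraries. Those 2 high libraries were the mock libraries with the lowest sum of keratinocyte markers (6350 and 6862 CPM, against at least 20273 CPM in the others), and the part of this in the result was not tested.

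Krt23 fell by 3.35 on the log2 scale from treated skin to tumors in fl/fl mice, which is 10.2-fold (SE 0.44, adjusted p = 0.00312 by edgeR). In ΔK14 mice it fell by 1.91, or 3.75-fold (SE 0.52, adjusted p = 0.0206). The fall was called in 6 of 6 fits lacking a library in fl/fl mice and in 4 of 6 in ΔK14 mice, where the adjusted p was 0.0738 without treated replicate 2 and 0.0531 without tumor replicate 3. In a single fit of all libraries the ΔK14 fall was not called (-1.80, adjusted p = 0.179), nor was it with the replicate number as a block. Against mock skin the log2 fold changes were -3.30 (SE 1.11, adjusted p = 0.115) in fl/fl and -2.13 (SE 1.03, adjusted p = 0.192) in ΔK14 mice. The latter turned to 1.42 without mock ΔK14 replicate 1 and was -2.95 with an adjusted p of 0.00310 without replicate 2. Each of these fits had 1 mock library left, assumed to vary like the tumors, and the latter called 3585 genes.

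Krt19, the type I keratin that lacks a tail domain, ran from 1.31 to 16.1 CPM over all libraries. Mock skin had 3.00, 6.87 and 4.35 CPM in fl/fl mice and 2.98 and 3.24 CPM in ΔK14 mice. Treated skin had 2.06, 2.63 and 1.31 CPM in fl/fl mice and 2.87, 2.74 and 4.06 CPM in ΔK14 mice. Tumors had 16.1, 2.29 and 5.24 CPM in fl/fl mice and 7.38, 4.54 and 8.36 CPM in ΔK14 mice. ΔK14 tumors were above treated and mock ΔK14 skin, the former shared by 28.4% and the latter by 28.6% of all genes tested. The fl/fl tumors overlapped both kinds of fl/fl skin. From treated skin to tumors the log2 fold change was 1.84 (SE 0.71, adjusted p = 0.0928) in fl/fl mice and 0.97 (SE 0.34, adjusted p = 0.0538) in ΔK14 mice by edgeR, neither past the threshold. Without tumor fl/fl replicate 1, the library at 16.1 CPM, the fl/fl value was 0.83 (adjusted p = 0.228). The fl/fl value passed with DESeq2 (1.93, adjusted p = 0.0352) and without tumor replicate 2 (2.38, adjusted p = 0.0352). The ΔK14 value passed without treated replicate 3 (1.17, adjusted p = 0.0450) or tumor replicate 2 (1.22, adjusted p = 0.0381).

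**Figure D3:**
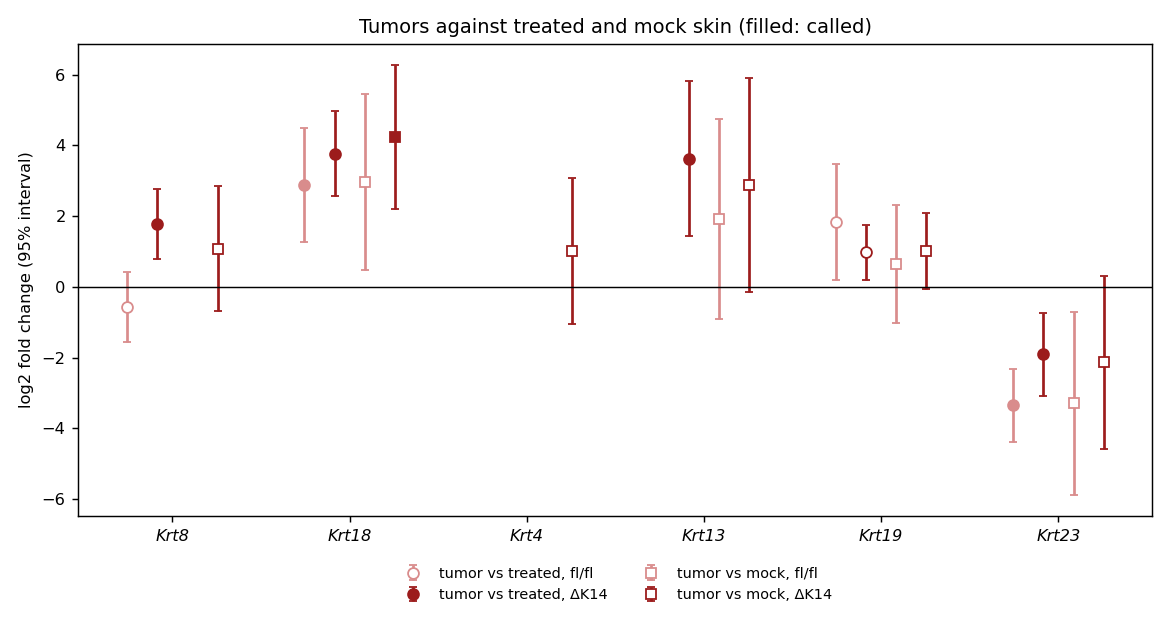
Fitted log2 fold change (vertical axis) with its 95% interval for tumors against treated skin (circles) and mock skin (squares) in each genotype, for the 6 keratins with at least 1 test. Filled symbols had an adjusted p under 0.05 with more than a 2-fold change; Krt18 is filled in 3 of 4 comparisons and Krt23 lies below 0 in 4 of 4.

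Counted over the members, tumors against treated skin gave 1 rise (Krt18) and 1 fall (Krt23) among 4 members tested in fl/fl mice, where 18.0% of 15362 genes were called (7.50% higher and 10.5% lower). In ΔK14 mice the comparison gave 3 rises (Krt8, Krt13, Krt18) and 1 fall (Krt23) among 5 members tested, with 26.0% of 15289 genes called (10.5% higher and 15.5% lower). Tumors against mock skin gave 0 calls among 4 in fl/fl mice, with 4.11% of 15394 genes called, and 1 among 6 in ΔK14 mice, with 14.3% of 15027 genes called (7.05% higher). In the first of these Krt18 and Krt23 had unadjusted p under 0.05, as did 26.2% of all genes tested, and DESeq2 called 1 member. Both tumor comparisons of a genotype use the same tumor libraries. Members entered a test only if some group had enough counts, so these shares do not describe all 8 genes.

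Treated skin against mock skin gave 0 calls by edgeR for the members in either genotype, as for all genes tested (0.00% of 16601 genes in fl/fl mice and 0.00% of 15891 in ΔK14 mice). Over all genes, unadjusted p under 0.05 was met by 913 in fl/fl and 763 in ΔK14 mice, among them 1 member (Krt19) in fl/fl and 0 in ΔK14 mice, and DESeq2 called 0 members. In fl/fl mice the log2 fold changes were 1.12 for Krt8 (adjusted p = 0.888), -1.23 for Krt19 (adjusted p = 0.849) and 0.12 for Krt23 (adjusted p = 0.993), and the other members were not tested. Krt8 was called in 0 of 6 fits with a library left out (0.66 to 1.64). The outcome for Krt23, Krt19 and Krt13 depended on mock replicate 1. Without it, Krt23 became 2.23 (adjusted p = 0.00307) and Krt19 -1.46 (adjusted p = 0.0386), and Krt13 entered the test at -2.08 (adjusted p = 0.0143), all past the threshold in a fit that called 2587 genes in all. In ΔK14 mice Krt23 changed from -0.23 to 3.27 without mock replicate 1, with an adjusted p of 0.153 on a single remaining mock library, assumed to vary like the others.

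Between genotypes no member was called by edgeR in mock, treated or tumor cells, against a background of 0.00%, 0.00616% and 0.0284% of all genes. Unadjusted p under 0.05 was met by 0, 1 (Krt8) and 3 members (Krt8, Krt18 and Krt23), and DESeq2 called 0 in each. Of all genes tested, 253 of 15920, 901 of 16232 and 1975 of 14067 were under that p. In mock skin even the deleted gene Zfp36 was not called, though every ΔK14 library was lower (log2 fold change -4.13, SE 0.86). The mock comparison, with 2 ΔK14 libraries, could thus miss a large difference. Zfp36 was called in treated skin and in tumors. In tumors Krt18 and Krt8 were higher in ΔK14 mice in every library. The log2 fold change was 1.22 (SE 0.53, adjusted p = 0.354) for Krt18 and 1.28 (SE 0.47, adjusted p = 0.296) for Krt8, and 13.6% of genes had ΔK14 tumors above fl/fl tumors without overlap. The other values in tumors were 1.57 for Krt23 (adjusted p = 0.328), 1.07 for Krt13, -0.23 for Krt19 and 0.54 for Krt4. Without the low-count filter Krt13 (1.23, adjusted p = 0.0240) and Krt18 (1.39, adjusted p = 0.00282) were called. That fit called 1393 genes in all, against 4 with the filter. A filtered fit without tumor fl/fl replicate 1 called 2613 genes and 0 members. In treated skin Krt8 was lower in ΔK14 mice in every library (-1.005, SE 0.40, unadjusted p = 0.0369 and adjusted p = 0.897, edgeR), as were 5.93% of genes without overlap.

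The differences between genotypes in the change from treated skin to tumors were tested for 6 members and none was called by edgeR. The same held for the differences in the changes from mock to treated skin and from mock skin to tumors, where 0.00% of genes were called in either contrast. Beside Krt8, the differences were 1.45 for Krt23 (SE 0.76), 0.91 for Krt18 (SE 0.95), 0.23 for Krt13 (SE 1.82), 1.08 for Krt4 (SE 0.90) and -0.85 for Krt19 (SE 0.81). Their intervals were wide, -1.15 to 2.96 for Krt18 and -0.20 to 3.10 for Krt23. The rises of Krt13 and Krt8 in ΔK14 tumors are therefore not shown to differ from the changes in fl/fl tumors.

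Levels of different keratins were compared per kb of merged exons. In mock fl/fl skin the order of means was Krt23 at 8.93 ± 11.8 CPM per kb (SD, n = 3), Krt19 at 2.56 ± 1.06, Krt13 at 1.36 ± 1.03, Krt18 at 0.757 ± 1.02, Krt8 at 0.529 ± 0.330, Krt4 at 0.509 ± 0.308, Krt7 at 0.150 ± 0.102 and Krt20 at 0. In ΔK14 tumors it was Krt18 at 16.9 ± 6.18 (SD, n = 3), Krt13 at 11.3 ± 13.7, Krt19 at 3.64 ± 1.07, Krt23 at 3.15 ± 1.74, Krt8 at 2.06 ± 0.765, Krt4 at 1.34 ± 0.662, Krt7 at 0.0567 ± 0.0282 and Krt20 at 0. Krt18 was in the fourth place in the former and in the first in the latter, groups that differ in stage and in genotype. The ranges of mean ± SD overlapped for neighbours in either order, except for Krt4 and Krt7 in the tumors and for Krt7 and Krt20 in both groups. In mock ΔK14 skin Krt18 was at 0.754 ± 1.07 (SD, n = 2), below Krt8 at 0.852 ± 0.945. In fl/fl tumors Krt18 was at 6.13 ± 4.61 (SD, n = 3) and Krt13 at 5.57 ± 7.61.

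Lists of related genes gave the surroundings of these changes. They too were chosen with earlier results of these data known, so their counts are descriptions and no independent check. Of all genes tested for tumors against treated skin, 7.50% rose and 10.5% fell in fl/fl mice. In ΔK14 mice 10.5% rose and 15.5% fell. Against mock skin 2.22% rose and 1.88% fell in fl/fl mice, and 7.05% rose and 7.22% fell in ΔK14 mice. Of 42 other keratins in the table, 32 were tested for tumors against treated skin in fl/fl mice, and 3 rose while 14 fell (median log2 fold change -2.02, against -0.02 over all genes). The risers were Krt6a (3.89, adjusted p = 0.00514 by edgeR), Krt16 and Krt6b, keratins of wounded and hyperproliferative epidermis. Among those that fell were Krt71 (-5.60) and Krt28 (-5.13), keratins of the inner root sheath of the hair follicle, and Krt77 (-6.65). In ΔK14 mice 6 rose and 16 fell of 26 tested (median -3.09 against -0.03), with Krt42 (2.36), Krt6b (3.15) and Krt6a (2.87) among the former and the inner root sheath keratins Krt25 (-8.68), Krt71 (-8.15) and Krt73 (-6.10) among the latter. Against mock skin, 3 rose and 2 fell of 25 in fl/fl mice, and 5 rose and 5 fell of 18 in ΔK14 mice.

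Of 12 genes of mucosal squamous epithelium, 5 were tested for tumors against treated skin in ΔK14 mice. All 5 rose (median 2.61), as did 10.5% of all genes tested (median over all genes -0.03). Genes that are high in tumors alone can pass the filter on low counts through the tumors, so these 5 do not describe all 12. Those that rose included Pitx1 (5.70, adjusted p = 0.00160 by edgeR), Tmprss11e (2.61) and Emp1 (2.02). In fl/fl mice 2 of 3 rose, Emp1 (1.50) and Tmprss11e (2.39). Against mock skin 1 of 3 rose in fl/fl mice and 3 of 5 in ΔK14 mice, where Cnfn rose by 5.99. Krt4 was too low to be tested for tumors against treated skin in either genotype.

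Of 13 genes of simple and glandular epithelia, 8 were tested for tumors against treated skin in ΔK14 mice. Of these 4 rose and none fell (median 1.56), while 10.5% of all genes tested rose and 15.5% fell (median -0.03). The same limit of the filter holds, so these 8 do not describe all 13. Those that rose included the protease inhibitor Slpi (4.91, adjusted p = 0.000173 by edgeR), Wfdc2 (7.46) and the tight junction gene Cldn4 (2.11). In fl/fl mice 2 of 7 rose, Slpi (5.98) and the epithelial transcription factor Ehf (1.79). Against mock skin 1 of 7 rose in fl/fl mice and 3 of 7 in ΔK14 mice. Of 14 genes for keratin filament linkers and binding proteins, 1 rose (Sfn, 1.45) and 2 fell in fl/fl tumors against treated skin, Ppl by 1.45 among them. In ΔK14 mice Sfn (1.83) and the cytolinker Plec (1.25) rose, and Fbf1 fell by 1.02. Against mock skin, 1 fell in fl/fl mice (Ppl, -2.72), and 1 rose and 1 fell in ΔK14 mice. No gene of the 4 lists was called between genotypes or between treated and mock skin.

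Cells other than keratinocytes that use these keratins were looked for through their markers. Merkel cells express Krt8, Krt18 and Krt20 and carry EpCAM. The sum of 11 Merkel cell markers, which excluded keratins, was 1.08 to 5.87 CPM in mock and treated skin, 4.92 to 9.03 CPM in fl/fl tumors and 10.4 to 20.4 CPM in ΔK14 tumors, so that its group ranges were higher in tumors, as those of Krt18 were. Within the tumors of a genotype the order differed, the highest sum being in replicate 1 of each (9.03 and 20.4 CPM) and the highest Krt18 in replicate 2. Its part in the rise was not tested. Sox2 (up to 15.4 CPM in a ΔK14 tumor) and Piezo2 (3.13 to 10.9 CPM in ΔK14 tumors) made up most of the sum in ΔK14 tumors. Sox2 is on the list of mucosal genes as well, as Aqp5 of the luminal markers and Krt15 of the bulge markers are on other lists. Only 1 of the 11, Piezo2, passed the filter there, and it was called (log2 fold change 2.09). The defining gene Atoh1 and Krt20 were at 0 in the 6 tumor libraries, and Isl1 was at 0 in fl/fl tumors.

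Of 9 markers of mammary or sweat gland luminal cells, Csn2 and Ltf were at 0 in all tumors. The sum was 34.1 to 138 CPM in fl/fl tumors, 12.7 to 22.2 CPM in ΔK14 tumors and 15.4 to 160.1 CPM in mock and treated skin. A large part of it was Prlr, with means of 81.9 CPM in fl/fl tumors, 3.10 CPM in ΔK14 tumors and 84.9 CPM in mock fl/fl skin. Sebaceous gland markers (8 genes) reached 4218 and 7436 CPM in tumor fl/fl replicates 2 and 3, against 291 CPM in replicate 1 and 276 to 378 CPM in ΔK14 tumors. Leukocyte markers (8 genes) summed to 62.3 to 89.5 CPM in ΔK14 tumors and 18.5 to 33.1 CPM in fl/fl tumors, with 176 CPM in treated ΔK14 replicate 3. Most of the sum in tumors was Cd74, with a mean of 69.5 CPM in ΔK14 and 18.1 CPM in fl/fl tumors, while Ptprc (0.823 and 0.611 CPM) and Itgam (1.84 and 1.97 CPM) were low in both. Cd74 was thus higher in the tumors in which Krt18 and Krt8 were higher, and its part in that difference was not tested. Hair follicle bulge markers (7 genes) summed to 484 to 888 CPM in tumors and 382 to 2716 CPM in skin. This sum joined genes that moved in opposite directions. For tumors against treated skin, 1 of the 7 rose and 4 fell in fl/fl mice, where 7.50% of all genes tested rose and 10.5% fell. In ΔK14 mice 1 rose and 2 fell, where 10.5% rose and 15.5% fell. Fibroblast markers (6 genes) were lower in tumors (30.4 to 386 CPM) than in mock skin (506 to 1678 CPM), and treated skin (377 to 955 CPM) overlapped with both. Melanocyte markers were at 12.1 to 40.0 CPM in tumors and 51.6 to 375 CPM in mock and treated skin, while endothelial and muscle markers stayed at or below 40.3 and 6.52 CPM.

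**Figure D4:**
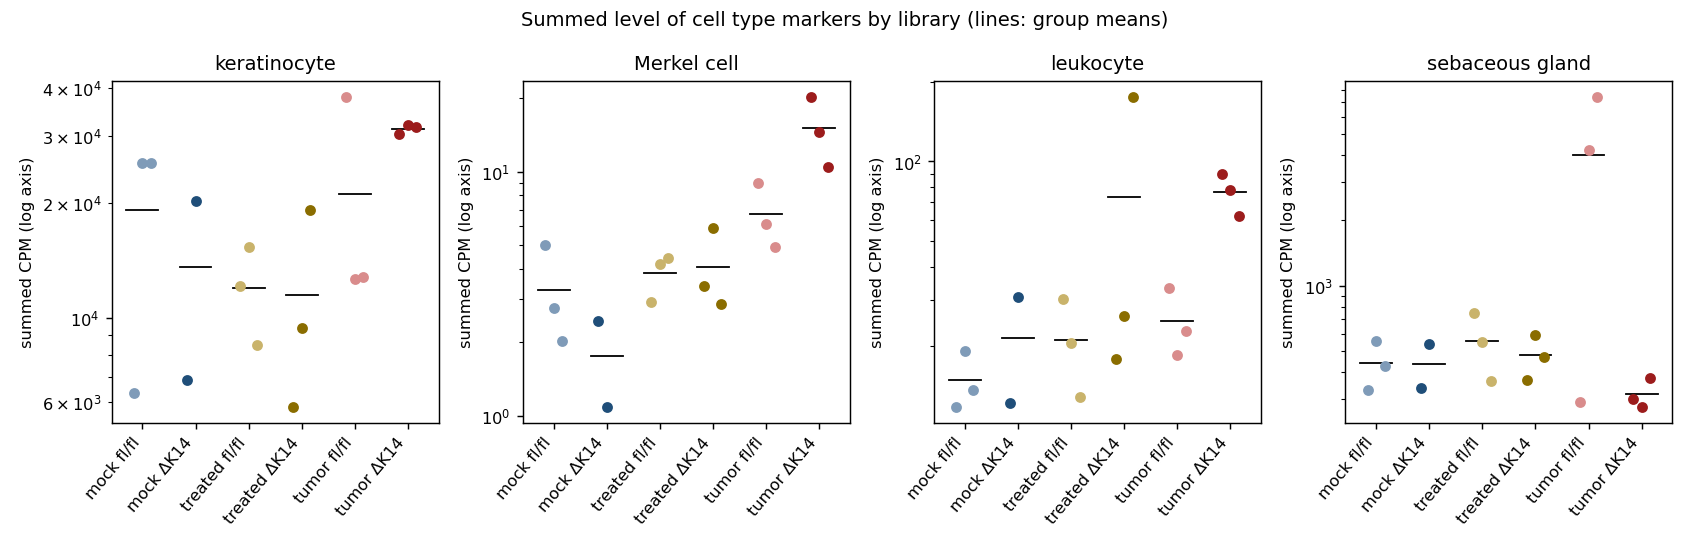
Summed CPM (log axis) of marker genes of keratinocytes, Merkel cells, leukocytes and sebaceous gland in each library, by group, with lines at group means. Merkel cell sums reach 20.4 CPM in ΔK14 tumors, and 2 of 3 fl/fl tumors have sebaceous sums of 4218 and 7436 CPM.

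The profiles most like each member were sought over the 17 libraries among 18251 genes, by the root mean square difference of centered log2 CPM. For Krt18, whose own spread was 1.98, they were the phosphatase gene Dusp9 (0.62), Spsb1 (0.69) and the phosphatase gene Dusp4 (0.73). For Krt23 (spread 1.62) they were Rasl11b (0.58), Myh10 (0.60) and Cux1 (0.60), and for Krt13 (spread 1.68) Cpne2, Ly6c2 and S100a4 (all 0.83). For Krt8, Krt19 and Krt4, whose spreads were 0.78 to 0.81, the nearest were Xk (0.36), Mpp1 (0.38) and Pqlc3 (0.35). No member was among the nearest genes of another.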

How the data were processed

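RNA-seq of sorted epidermal cells was deposited by the authors as raw counts per gene in 18 columns (6 groups of 3), made from Ovation SoLo libraries sequenced on an Illumina HiSeq. The submitters' processing notes name Trimmomatic 0.36, STAR 2.5.3, HTSeq 0.9.1, DESeq2 and mm10. The annotation release, strand use and handling of duplicate reads are not given in the sources used here, and PCR copies are not independent molecules. No row lacked a gene.

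Counts were analyzed with R 4.3.3, edgeR 4.0.16 and limma 3.58.1, with DESeq2 1.42.0 as an alternative. Each comparison used only its own groups, with filterByExpr at its defaults, TMM scaling, the quasi-likelihood test (two-sided) and Benjamini-Hochberg adjustment over all genes tested. A call required more than a 2-fold change with adjusted p below 0.05. Differences between genotypes in a change were contrasts over 4 groups. CPM use TMM-scaled totals. Limits for a 0 use 3 counts. Positions, lengths and untranslated regions came from GENCODE release 21 (GRCm38). Profiles used a prior count of 2. The procedures were tested on simulated data.

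Named were the 8 members in every comparison, Zfp36, up to 3 called genes per list, comparison and direction with the smallest p and no overlap between groups (not all are printed), the 3 nearest profiles of each member with at least 10 counts in 3 libraries, and marker genes. Members and lists were chosen with earlier results of these data known. Alternatives were DESeq2, RLE scaling, no low-count filter, a single fit of all libraries, the replicate number as a block, each library left out, and longest-transcript lengths.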

Additional observations from a re-analysis of the deposited data

Results flagged for a closer look

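The genotype difference of Krt8 had opposite signs in 2 stages and was called in neither. It was flagged because its libraries separated in both. In treated skin every ΔK14 library was below every fl/fl library (log2 fold change -1.005, adjusted p = 0.897 by edgeR), as in 5.93% of all genes tested. In tumors every ΔK14 library was above every fl/fl library (1.28, adjusted p = 0.296 by edgeR), as in 13.6% of all genes tested. The test of the difference itself, by edgeR, gave 2.35 (SE 0.61) with an adjusted p of 0.207, so it was not past the threshold. The counts were 10 to 22 and 4 to 9 per library in treated fl/fl and ΔK14 skin and 4 to 9 and 11 to 30 in the tumors.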

How the results depend on the processing

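The number of members called for tumors against treated skin was 2 in fl/fl mice (4 without the low-count filter, 1 with the replicate block, 1 to 3 with a library left out) and 4 in ΔK14 mice (2 with the block, 1 to 5 with a library left out, the lowest without treated replicate 2). Against mock skin it was 0 in fl/fl mice (1 with DESeq2, 2 without the filter, 2 in a single fit, 0 to 1 with a library left out) and 1 in ΔK14 mice (2 with DESeq2, 3 without the filter, 0 to 2 with a library left out, 0 without any 1 tumor library). It was 0 between genotypes in tumors (2 without the filter), 0 for treated against mock fl/fl skin (0 to 3 with a library left out) and 0 for the genotype difference of tumors against treated skin (0 to 1). Longest-transcript lengths moved Krt7 to 0.258 CPM per kb in mock fl/fl skin and 0.0976 in ΔK14 tumors. The causes were not tested.

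With a library left out, the sign turned for uncalled values of Krt13 (-0.25 to 2.56) and Krt19 (-0.37 to 1.15) for tumors against mock fl/fl skin, Krt23 for tumors against mock ΔK14 skin (-2.95 to 1.42) and treated against mock skin (-0.34 to 2.23 in fl/fl and -1.10 to 3.27 in ΔK14 mice), Krt13 (-0.72 to 3.31) and Krt19 (-0.73 to 0.83) between genotypes in tumors, and Krt13 (-1.54 to 2.42) and Krt19 (-1.34 to 0.16) in the genotype difference of tumors against treated skin. With the replicate block, Krt23 in treated against mock ΔK14 skin became 0.89, Krt13 for tumors against treated ΔK14 skin 2.89 with the call lost (adjusted p = 0.0645), Krt19 between genotypes in tumors 0.00085 and Krt13 in the genotype difference -0.14. For tumors against treated skin, the block also lost the calls of Krt23 in ΔK14 mice and of Krt18 in fl/fl mice. Same-numbered libraries did not deviate together in all 3 pairs of any comparison (correlations -0.55 to 0.39). With only 2 pairs, they were 0.78 and 0.57 between genotypes in mock skin, 0.57 and 0.14 for treated against mock ΔK14 skin and 0.09 and 0.12 for tumors against mock ΔK14 skin, so the replicate numbers were not shown to pair the samples. Few counts per library limit Krt4, Krt7, Krt8 and Krt20.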
